A study of Mus musculus with 9 samples.

Results

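Integrin and laminin genes were read in mRNA-seq libraries of 66cl4, a murine triple negative breast cancer cell line. The members are all symbols of the integrin alpha and beta subunit families, the integrin beta-like gene Itgbl1 and the alpha, beta and gamma chain families of laminin, which gave 27 integrin and 11 laminin genes, 38 of the 52208 genes counted. Each of 3 groups had 3 libraries, labelled as biological replicates. The shScramble group had a scrambled hairpin with an empty vector, the shEya3 group a hairpin to Eya3 with the same empty vector, and the IKK2-SE group that Eya3 hairpin with IKK2-SE, an IKK2 kinase that switches NF-kB on without a stimulus. All cultures grew in 10% calf serum under puromycin (2.5 µg per ml), which keeps hairpin-bearing cells, and carried an mCherry-selected second vector. No group joined IKK2-SE to the scrambled hairpin, sample titles and the table's columns number the Eya3 hairpin differently (KD2 and KD3), so which one was used is not known, and whether replicates are separate transductions is not stated, so every p measures the spread between these cultures. A single Eya3 hairpin was read and no group restored Eya3, so low Eya3 cannot be told apart from other differences between these lines. In bulk RNA, fewer cells expressing a gene and less of its RNA per cell cannot be told apart.

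An integrin is a surface receptor made of 1 alpha and 1 beta subunit, and the pair sets which ligand it holds. Laminins are secreted trimers of an alpha, a beta and a gamma chain that build the basement membrane sheet under epithelia. In mammary epithelium alpha 3 joined to beta 1, and alpha 6 joined to beta 1 or beta 4, bind laminin. Alpha 6 beta 4 anchors the hemidesmosome. Beta 2 subunits are best known from leukocytes, joined to alpha L, M, X or D.

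Libraries held 63601403 to 81534534 counts, of which the members took 0.338% to 0.373%. Levels are in CPM, counts scaled to library size with TMM factors. The targeted gene Eya3 was at 62.9, 64.1 and 60.9 CPM in shScramble, 25.3, 25.3 and 24.3 CPM in shEya3 and 29.0, 26.0 and 24.6 CPM in IKK2-SE libraries, and fell by 1.33 ± 0.06 on the log2 scale (estimate ± SE, edgeR adjusted p = 5.97e-12) with its hairpin. Ikbkb, the mouse gene of IKK2, averaged 47.8, 44.3 and 48.6 CPM and did not pass the test with IKK2-SE (edgeR adjusted p = 0.0809), though it did under scaling by library totals (0.0362), in a fit blocked on replicate (0.0243) and without shScramble replicate 3 (0.0489). Whether reads of the vector would be counted there is not known. Of the line's markers, Krt8 averaged 628, 1329 and 1072 CPM and Vim 2766, 3809.6 and 2693 CPM in the 3 groups, while the epithelial markers Epcam and Cdh1 had at most 5 and 8 counts in a library. Summed over 6 endothelial markers the level was 4.85 to 5.74 CPM, 0.306 to 0.561 CPM and 1.20 to 1.43 CPM in the 3 groups, with Cldn5 at 0, and over 6 fibroblast markers 48.34 to 50.02 CPM, 44.2 to 48.9 CPM and 52.9 to 56.4 CPM, with Thy1 at 0. The fibroblast sum is mostly Pdgfra, with means of 47.9, 39.8 and 42.7 CPM. Its less abundant members Pdgfrb, with means of 1.24, 7.08 and 10.7 CPM, and Dcn, with 0, 0 and 0 counts, 1, 8 and 6 counts and 64, 44 and 47 counts, were higher at each step. The part of these markers in the results was not tested.

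Of the 38 members, 28 had enough reads to be tested. Among these 28, 22 were past the count filter in every library of all 3 groups. Itgbl1 and Itga8 were past it in both groups with the Eya3 hairpin only, and Itgal, Itga2, Lama2 and Lama1 in shScramble only, so these 6 entered through the groups in which they were high. The other 10 were near absent. Itgb8 had no count in any library, Itgb3 had 2 counts in 1 IKK2-SE library, and Itgb6, Itga9, Itgam, Itgax, Lama4, Itga11, Itga4 and Itgad averaged at most 0.0882 CPM in a group. A count of 3 in a library equals 0.0375 to 0.0464 CPM, the limit that a count of 0 allows, for counting error only.

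**Figure D1:**
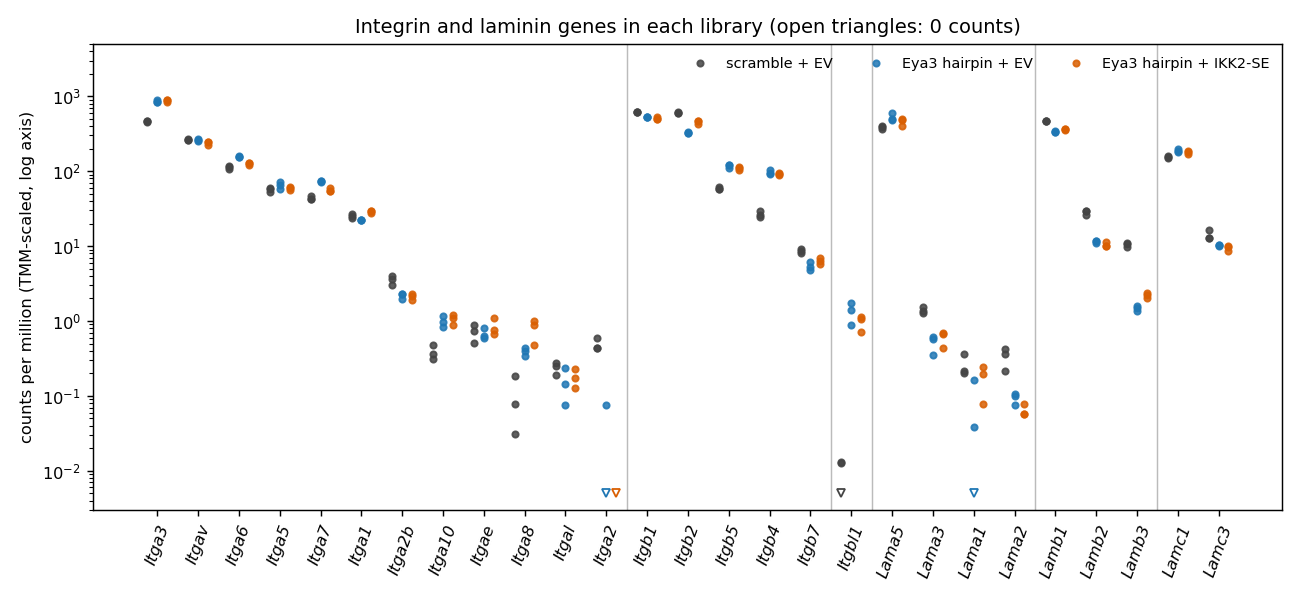
Level of 27 tested integrin and laminin genes in each of the 9 libraries, in TMM-scaled CPM on a log axis. Each point is 1 library, vertical lines part the subunit classes, and open triangles mark libraries with 0 counts; Itgb4 and Itgb5 sit higher and Lamb2 and Lamb3 lower in both groups with the Eya3 hairpin.

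The mix of receptor subunits was read per kilobase of exon, the scale on which genes of different length can be set side by side. Itga3, the alpha subunit of a laminin receptor, was the most abundant alpha subunit in each group, with 58.9% ± 0.465 (SD, n = 3) of the summed alpha level in shScramble, 69.4% ± 0.373 in shEya3 and 72.5% ± 0.261 in IKK2-SE cells. Itgav, which binds RGD ligands such as vitronectin, followed with 17.9%, 11.3% and 10.6%, and Itga6, a second laminin-binding subunit, with 9.12%, 8.04% and 6.68%. Among beta subunits the order differed between groups. Itgb2 led in shScramble cells at 53.1% ± 0.549 against 40.7% ± 0.735 for Itgb1, the common partner of most alpha subunits. Itgb1 led in shEya3 cells at 45.5% ± 0.640 against 37.4% ± 0.551 for Itgb2, and Itgb2 led again in IKK2-SE cells at 46.3% ± 0.726 against 39.2% ± 1.03. Itgb5 held 4.40%, 11.6% and 9.69% and Itgb4 1.01%, 4.84% and 4.10% of the beta level. These shares describe the mixture and were not tested. A share depends on the other subunits and can move against the level of its own gene. With the hairpin Itga6 rose by 0.47 on the log2 scale while its share fell. Itgb1 fell by 0.23 while its share rose, and Itgav differed by -0.01 while its share fell.

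**Figure D2:**
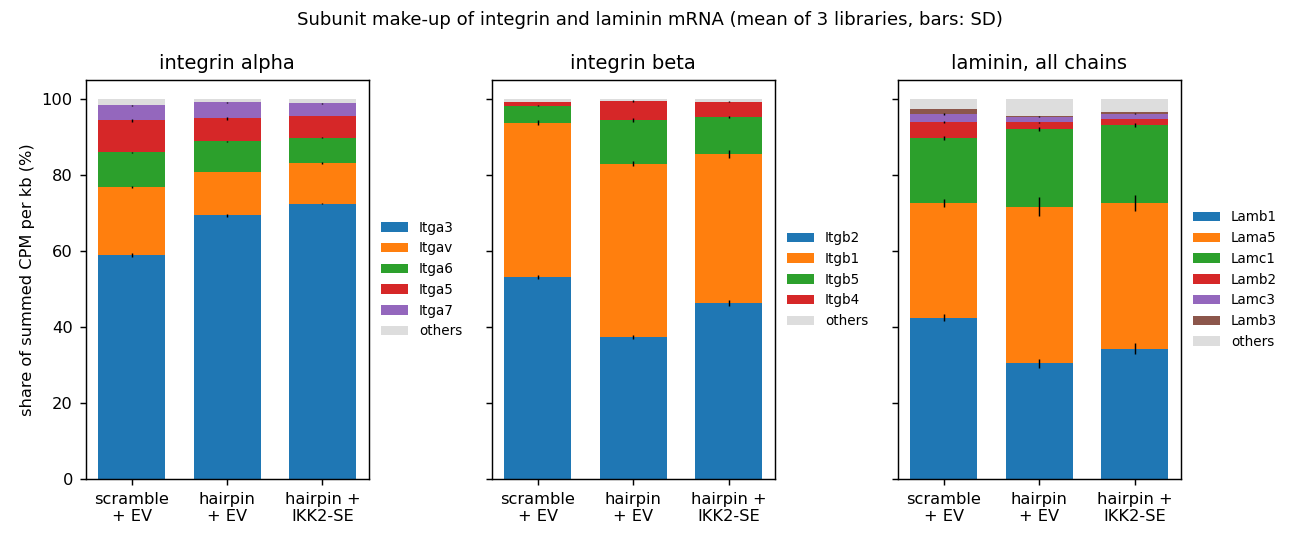
Share of each subunit in the summed CPM per kilobase (y axis, %) of integrin alpha genes, integrin beta genes and all laminin chains, for the 3 groups (x axis). Bars are means of 3 libraries with SD, and genes not named are pooled as others; Itgb2 takes 53.1%, 37.4% and 46.3% of the beta subunits.

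The first comparison, shEya3 against shScramble, asks which receptors and matrix chains differ between cells with the Eya3 hairpin and with the scrambled one. The beta subunits Itgb4 and Itgb5 rose, as did the laminin-binding alpha subunits Itga3, Itga6 and Itga7. The beta subunits Itgb1, Itgb2 and Itgb7 fell, as did all 3 laminin beta chains and the alpha chains Lama1, Lama2 and Lama3, whereas Lama5 and Lamc1 rose. Of the 28 tested members, 12 rose, 13 fell and 3 did not pass edgeR's quasi-likelihood test at a Benjamini-Hochberg adjusted p of 0.05. Of all 16766 tested genes 57.5% were called, 27.7% higher and 29.9% lower. A change of at least 2-fold was called for 5 members that rose and 6 that fell, against 14.7% of all genes (5.3% higher and 9.36% lower). Of these 11, the 5 members Itgbl1, Itga8, Itga2, Lama1 and Lama2 were tested only through the groups in which they were high. Among the 22 members past the filter in all groups, 10 rose and 10 fell, with 3 rising and 3 falling at least 2-fold. Of the 19 members whose mean log2 CPM was 1 or more, 9 rose and 9 fell (94.7%), beside 68.6% of all genes past that cut. Those 19 members ran from 1.40 to 9.51 and were not matched in level to the other genes. Over the members past the filter in all groups, median log2 changes were 0.09 for 14 integrins and -0.46 for 8 laminins, and that over all tested genes was -0.0015. With Lama1 and Lama2, tested only because they were high in shScramble, the laminin median was -0.88. Most expressed genes differed between these lines, so a call here does not by itself set a member apart.

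Itgb4, the beta subunit of the hemidesmosome receptor (chromosome 11, 115974709 to 116008412, plus strand; positions are on GRCm38/mm10, and all members given with one are protein coding), was at 29.2, 26.4 and 24.6 CPM in shScramble, 105.2, 92.1 and 94.1 CPM in shEya3 and 94.8, 91.5 and 88.9 CPM in IKK2-SE libraries. Every library with the Eya3 hairpin lay far above every shScramble library, and both hairpin groups overlapped. It rose by 1.86 ± 0.06 in shEya3 against shScramble cells (edgeR adjusted p = 4.27e-13), and the change from shEya3 to IKK2-SE was -0.08 ± 0.06 (edgeR adjusted p = 0.473). Its partner Itga6 (chromosome 2, 71745616 to 71858416, plus strand) was at 118, 114 and 108 CPM, 161, 156 and 153 CPM and 128, 130.5 and 119.8 CPM in the same order of groups. Itga6 was highest in shEya3 and lowest in shScramble libraries, with no overlap between groups. It rose by 0.47 ± 0.04 with the hairpin (edgeR adjusted p = 9.28e-08) and fell by 0.31 ± 0.04 from there with IKK2-SE (edgeR adjusted p = 0.000128). Summed over 7 mammary carcinoma and epithelial markers the level was 3097 to 3589 CPM, 4893 to 5433 CPM and 3589 to 3891 CPM in the 3 groups. That sum was also highest in shEya3 libraries, and nearly all of it was Vim and Krt8. Its members did not move together. Of the 5 tested, 3 rose with the hairpin and 1 fell at least 2-fold, beside 57.5% of all genes called. With IKK2-SE 2 of the 5 fell and 0 rose, beside 10.4% of all genes called. The part of these markers in the changes of Itga6 and Itga7 was not tested.

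Itga3 (chromosome 11, 95044474 to 95076801, minus strand) joins beta 1 in a receptor for basement membrane laminins. Its libraries gave 469, 466 and 452 CPM with shScramble, 887, 847 and 837 CPM with shEya3 and 882, 885 and 829.9 CPM with IKK2-SE, so both hairpin groups lay together above the first. It rose by 0.89 ± 0.04 with the hairpin (edgeR adjusted p = 8.47e-12), with 0.01 ± 0.04 from shEya3 to IKK2-SE (edgeR adjusted p = 0.887). Itga7, a laminin-binding subunit best known from muscle (chromosome 10, 128933818 to 128958282, plus strand), was at 47.2, 42.4 and 42.4 CPM, 75.1, 71.8 and 73.5 CPM and 54.0, 59.8 and 53.7 CPM. Like Itga6 it was highest in shEya3 and intermediate in IKK2-SE libraries, without overlap. It rose by 0.74 ± 0.05 and then fell by 0.40 ± 0.05 (edgeR adjusted p = 4.09e-09 and 8.67e-05). The summed level of 4 muscle markers was 9.22 to 10.7 CPM, 7.76 to 8.40 CPM and 7.46 to 9.85 CPM in the 3 groups, with Myog at 0 in all. That sum is mostly Des, which fell by 0.38 ± 0.10 with the hairpin (edgeR adjusted p = 0.00524). Acta2 had 0, 5 and 1 counts, 2, 4 and 15 counts and 42, 44 and 28 counts, and rose by 2.52 ± 0.59 with IKK2-SE (edgeR adjusted p = 0.0112). It was past the count filter in every library of the IKK2-SE group only, so it entered the test through the group in which it was high. Myh11 had 6, 4 and 4 counts, 13, 7 and 19 counts and 14, 9 and 27 counts, and the part of these markers in the result was not tested.

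Itgb5 (chromosome 16, 33829665 to 33949338, plus strand), which joins alpha v in a vitronectin receptor, was at 60.7, 58.8 and 57.1 CPM in shScramble, 122, 111 and 121 CPM in shEya3 and 115, 111 and 103 CPM in IKK2-SE libraries. It rose by 1.00 ± 0.05 (edgeR adjusted p = 3.74e-11) and every hairpin library lay above every shScramble library, while IKK2-SE made a difference of -0.10 ± 0.05 (edgeR adjusted p = 0.224). Its partner Itgav was at 270.2, 263 and 259 CPM, 272, 256 and 259.9 CPM and 246, 248 and 222 CPM, and differed by -0.01 ± 0.04 between the first 2 groups (edgeR adjusted p = 0.88). The fibronectin receptor subunit Itga5 rose by 0.19 ± 0.06 (edgeR adjusted p = 0.0173). That call ended under scaling by library totals (0.0616), without shScramble replicate 3 (0.0879) and without shEya3 replicate 1 (0.0963). The collagen receptor subunit Itga1 (chromosome 13, 114953096 to 115101964, minus strand) fell by 0.16 ± 0.06 (edgeR adjusted p = 0.0216), a call that ended without shScramble replicate 1 (0.0604) or 3 (0.121), or shEya3 replicate 2 (0.0563) or 3 (0.0593).

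Itgb2 (chromosome 10, 77530252 to 77565708, plus strand) had the largest fall of the beta subunits. It stood at 626, 604 and 598 CPM in shScramble, 331.8, 326 and 321 CPM in shEya3 and 463, 464 and 424 CPM in IKK2-SE libraries. No group overlapped another, and the IKK2-SE libraries lay between the others. It fell by 0.90 ± 0.04 with the hairpin (edgeR adjusted p = 1.27e-11), rose by 0.47 ± 0.04 with IKK2-SE (edgeR adjusted p = 8.1e-07), and IKK2-SE cells still differed from shScramble by -0.44 ± 0.04 (edgeR adjusted p = 1.02e-07). The alpha subunits it is known to join, Itgal, Itgam, Itgax and Itgad, summed to 0.140 to 0.396 CPM in a library. Only Itgal of these 4 was tested, with a difference of -0.64 ± 0.46 (edgeR adjusted p = 0.257). Of 7 leukocyte markers, Tyrobp had no count in any library and Ptprc had at most 11. Their summed level was 14.1 to 15.1 CPM in shScramble, 4.13 to 4.70 CPM in shEya3 and 3.44 to 3.98 CPM in IKK2-SE libraries, nearly all from Cd68, a lysosomal protein, and its part in the result was not tested.

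Itgb7, a beta subunit known from lymphocytes, was at 9.20, 8.61 and 8.02 CPM, 6.17, 4.76 and 5.26 CPM and 7.004, 6.27 and 5.74 CPM and fell by 0.67 ± 0.11 with the hairpin (edgeR adjusted p = 4.22e-05). Its partner Itgae differed by -0.07 ± 0.27 (edgeR adjusted p = 0.845). Itgae overlaps Haspin on the opposite strand, which had a mean of 1435 counts against 55.0, and the sources used here do not say whether counting used the strand. Itgb1 (chromosome 8, 128685654 to 128733200, plus strand) was at 620.5, 624 and 626 CPM, 531, 527 and 536 CPM and 504, 524 and 501 CPM. All hairpin libraries lay below all shScramble libraries by a small margin, a step in which Itgb1 fell by 0.23 ± 0.03 (edgeR adjusted p = 1.57e-05), and IKK2-SE differed from shEya3 by -0.06 ± 0.03 (edgeR adjusted p = 0.324).

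Some subunits of low level showed large folds on few reads. Of these, Itga2 and Itga8 entered the test through the groups in which they were high. Itga2, a collagen receptor subunit of epithelia and platelets (chromosome 13, 114833081 to 114932100, minus strand), had 38, 34 and 33 counts in shScramble, 0, 6 and 0 in shEya3 and none in IKK2-SE libraries. It fell by 4.16 ± 0.74 (edgeR adjusted p = 0.000226), a size set by shEya3 replicate 2, without which that group had no count and the fitted change was -8.16. Set against 3 counts for the whole group, Itga2 was at least 34.8-fold lower in IKK2-SE than in shScramble cells. Itga10, also a collagen-binding subunit, was at 0.479, 0.307 and 0.359 CPM, 0.974, 1.17 and 0.837 CPM and 1.20, 1.10 and 0.885 CPM, and rose by 1.39 ± 0.24 (edgeR adjusted p = 0.000125). Itga8, which binds nephronectin, had 2, 6 and 14 counts, 35, 31 and 26 counts and 75, 34 and 61 counts, and rose by 1.95 ± 0.47 (edgeR adjusted p = 0.00202). The platelet subunit Itga2b averaged 3.56, 2.19 and 2.11 CPM and fell by 0.69 ± 0.14 (edgeR adjusted p = 0.000383). Summed over 4 platelet markers the level was 1.34 to 1.73 CPM, 0.465 to 0.712 CPM and 0.678 to 0.897 CPM, with Gp1bb at 0 throughout, and their part in the result was not tested.

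Itgbl1 (chromosome 14, 123659971 to 123975618, plus strand), a secreted protein with repeats like those of integrin beta subunits, had 0, 1 and 1 counts in shScramble, 112, 69 and 130 in shEya3 and 86, 50 and 74 in IKK2-SE libraries. It was close to absent in the first group and present in every library of the others. Itgbl1 entered the test through the hairpin groups, in which it was high. The ratio of shEya3 to shScramble was 145, with a 95% exact interval from 39.8 to 1203 for counting error only (edgeR adjusted p = 1.18e-08). IKK2-SE and shEya3 cells differed by -0.46 ± 0.26 (edgeR adjusted p = 0.34).

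Promoters were searched because the add-back acts through NF-kB. They are shown for Itgb1, Itgb5 and Itga2, which with the hairpin changed little, rose and was nearly lost. None of these passed the test with IKK2-SE. RefSeq promoters on GRCm38.p6 matched 24 of the 38 members. The 250 bases before each transcript start were searched on both strands for GGGNNTTCC (a kappa-B motif of NF-kB), TGANTCA (AP-1), GGGCGG (the GC box) and TCAGGTTTC (MEF3, a motif of the DNA-binding partners of Eya), with matches in capitals and none overlapping another in these windows. The windows are chr8:128685404-128685653 on the plus strand, chr16:33829415-33829664 on the plus strand and chr13:114932101-114932350 on the minus strand, each written 5′ to 3′ along its gene.
Itgb1: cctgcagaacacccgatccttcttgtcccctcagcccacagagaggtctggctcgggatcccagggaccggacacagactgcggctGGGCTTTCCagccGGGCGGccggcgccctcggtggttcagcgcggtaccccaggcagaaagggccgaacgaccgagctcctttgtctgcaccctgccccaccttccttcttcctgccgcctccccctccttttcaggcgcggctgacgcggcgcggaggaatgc
Itgb5: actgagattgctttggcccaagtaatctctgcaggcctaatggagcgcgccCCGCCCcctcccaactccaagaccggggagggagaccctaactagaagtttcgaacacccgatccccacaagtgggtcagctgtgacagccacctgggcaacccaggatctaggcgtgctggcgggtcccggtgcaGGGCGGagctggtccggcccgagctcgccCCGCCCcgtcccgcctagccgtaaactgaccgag
Itga2: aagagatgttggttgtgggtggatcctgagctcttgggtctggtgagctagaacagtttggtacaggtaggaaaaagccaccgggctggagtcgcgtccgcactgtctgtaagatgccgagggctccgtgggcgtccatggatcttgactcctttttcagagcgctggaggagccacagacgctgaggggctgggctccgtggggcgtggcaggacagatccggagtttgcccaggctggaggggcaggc
Itgb1 held a kappa-B match that began 164 bases before the start, and a GC box. It was the single matched member with a kappa-B match, a motif found in 4.98% of all 32851 promoters, and did not pass the test with IKK2-SE. Of the named members called with IKK2-SE, Itga1 and Lamb3 were matched and held no kappa-B match, and Itgb2, Itga6 and Itga7 were not matched, so their promoters were not searched. Itgb5 held 3 GC boxes, a motif of 9 of the 24 matched members and 32.7% of all promoters. Itga2 held none of the 4 motifs. AP-1 was found in Itgax alone (6.75% of all promoters) and MEF3 in no member (0.387%). Only the 9-letter spelling GGGNNTTCC was searched for kappa-B, so sites of other spellings or outside these windows would be missed. A match describes letters and is not a binding site.

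Laminin chains are described by the trimers they form. Lama3 and Lamb3 are chains of laminin-332, the ligand under hemidesmosomes, and laminin-511 (Lama5, Lamb1 and Lamc1) is the broad epithelial form. Levels per kilobase in shScramble cells were 0.129 and 1.60 CPM per kb for Lama3 and Lamb3, far under the 33.7, 47.2 and 18.9 CPM per kb of Lama5, Lamb1 and Lamc1. In shEya3 cells Lama3 and Lamb3 were at 0.0476 and 0.224 CPM per kb, both lower than in shScramble.

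Lamb3 (chromosome 1, 193207699 to 193343878, plus strand) was at 10.8, 11.1 and 9.80 CPM in shScramble, 1.60, 1.48 and 1.37 CPM in shEya3 and 2.01, 2.20 and 2.36 CPM in IKK2-SE libraries. No group overlapped another, and IKK2-SE libraries lay much nearer to shEya3 than to shScramble. Lamb3 fell by 2.83 ± 0.11 (edgeR adjusted p = 2.18e-12) and then rose by 0.56 ± 0.12 (edgeR adjusted p = 0.00651). It overlaps Hsd11b1 on the opposite strand, with means of 347 counts for Lamb3 and 67.2 for Hsd11b1. Lama3 was at 1.36, 1.54 and 1.27 CPM, 0.350, 0.573 and 0.611 CPM and 0.673, 0.438 and 0.700 CPM. The hairpin groups lay below shScramble and overlapped each other, and Lama3 fell by 1.44 ± 0.24 (edgeR adjusted p = 8.49e-05), with 0.24 ± 0.26 from shEya3 to IKK2-SE (edgeR adjusted p = 0.674).

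Lama5 (chromosome 2, 180176373 to 180225859, minus strand), the alpha chain of most epithelial laminin, was at 396, 395 and 361 CPM in shScramble, 602, 497 and 481 CPM in shEya3 and 499.8, 479 and 403 CPM in IKK2-SE libraries. It rose by 0.46 ± 0.10 (edgeR adjusted p = 0.00225), with shEya3 replicate 1 well above the rest. Lamb1 (chromosome 12, 31265234 to 31329644, plus strand), the common beta chain, was at 466, 469 and 471 CPM, 347, 333 and 336 CPM and 362, 363 and 350.1 CPM and fell by 0.47 ± 0.03 (edgeR adjusted p = 5.13e-09). Lamc1 (chromosome 1, 153218922 to 153332786, minus strand), the common gamma chain, was at 152, 160.5 and 156 CPM, 198, 183 and 189 CPM and 179.9, 185 and 169 CPM and rose by 0.28 ± 0.04 (edgeR adjusted p = 2.77e-05). Per kilobase, Lamb1 led the laminins of shScramble cells with 42.4% ± 0.946 against 30.3% ± 1.04 for Lama5. Lama5 led in shEya3 cells, with 41.1% ± 2.54 against 30.5% ± 1.19, and in IKK2-SE cells, with 38.3% ± 2.07 against 34.3% ± 1.42. That change of order depends on the length used, since with the longest transcript Lamb1 led in all 3 groups.

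Lamb2 (chromosome 9, 108479736 to 108490530, plus strand), the beta chain of synaptic and kidney laminins, was at 29.5, 29.2 and 26.0 CPM, 11.7, 11.0 and 11.7 CPM and 11.3, 9.98 and 10.00 CPM. Every hairpin library lay below every shScramble library, and Lamb2 fell by 1.30 ± 0.07 (edgeR adjusted p = 1.18e-10). Lamc3 averaged 14.0, 10.3 and 9.39 CPM and fell by 0.45 ± 0.09 (edgeR adjusted p = 0.000532). Lama2, the alpha chain of muscle laminin, had 14, 33 and 27 counts in shScramble, 8, 6 and 8 in shEya3 and 6, 4 and 4 in IKK2-SE libraries, and fell by 1.81 ± 0.44 (edgeR adjusted p = 0.0022). Lama1, the alpha chain of early embryonic laminin, had 14, 16 and 27 counts, 13, 3 and 0 counts and 6, 14 and 17 counts, and fell by 1.91 ± 0.71 (edgeR adjusted p = 0.0297). Without shScramble replicate 3, or shEya3 replicate 2 or 3, the Lama1 call ended (0.114, 0.11 and 0.0921), and without shEya3 replicate 1 the change was -3.63. Lama1 and Lama2 entered the test through shScramble, in which they were high.

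**Figure D3:**
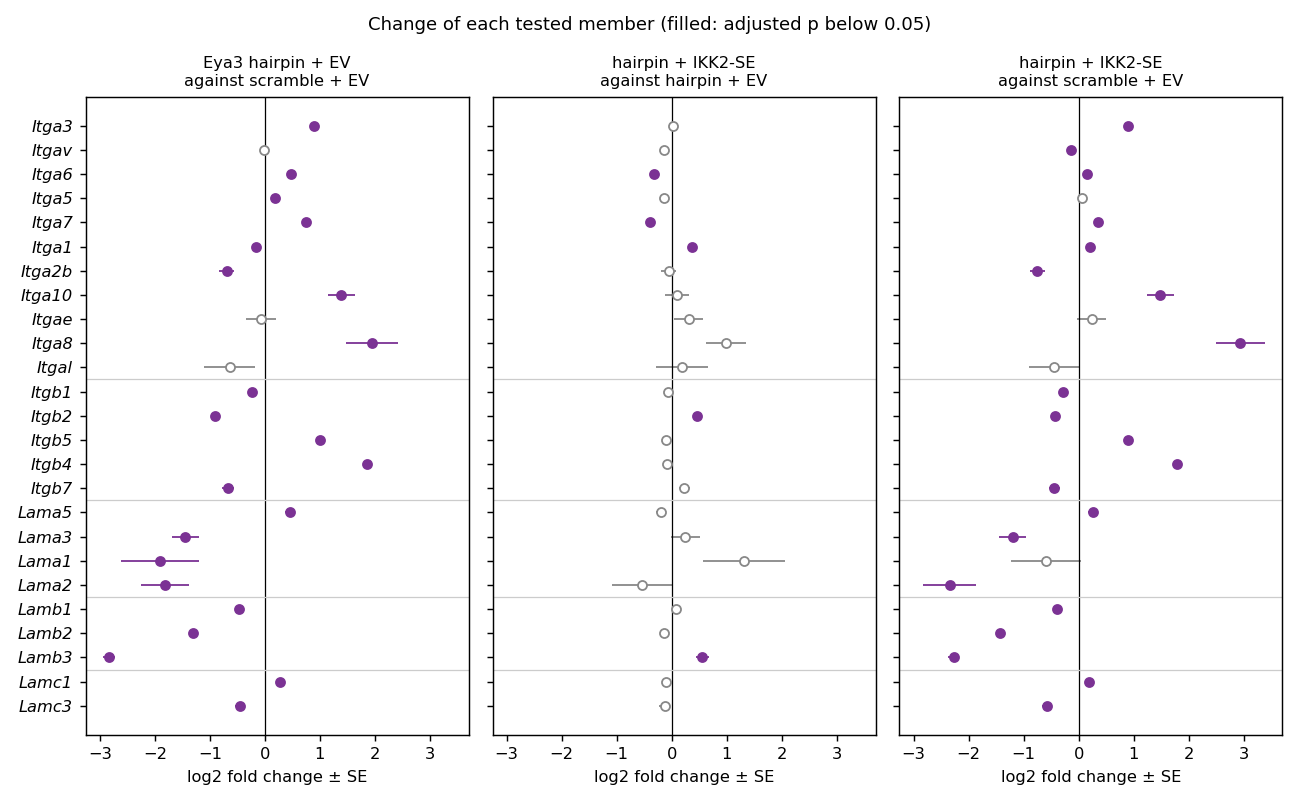
Log2 fold change ± SE (x axis) of 25 tested members (y axis, by subunit class) in the 3 comparisons, from edgeR's quasi-likelihood fit. Filled points have an adjusted p below 0.05; Itga2 and Itgbl1, with groups at or near 0 counts, are left out, and most points in the panel of IKK2-SE against shEya3 are open.

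Earlier results of these data, not given here, showed stretches of neighbouring genes shifted between the shScramble and hairpin lines. Each member was therefore set beside the median change of the 40 tested genes around it. How often medians of a given size occur elsewhere in the genome was not tested. Around Itgb2 and Lamb3 the neighbours' median was -0.64 and -0.66 for shEya3 against shScramble, in the direction of both genes' own changes (-0.90 and -2.83). Itga10 (1.39) lay among genes with a median of 0.52. Itga7 and Itga3, which rose, lay among genes with medians of -0.48 and -0.22, and Lama1, which fell, among genes with 0.32. Around Itgb4, Itgb5, Lamb2 and Lama3 the medians were 0.02, 0.09, -0.05 and 0.11. For IKK2-SE against shEya3, where Itgb2 and Lamb3 rose, their neighbours had medians of 0.05 each. What any regional shift adds to the changes of Itgb2, Lamb3 and Itga10 was not tested.

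**Figure D4:**
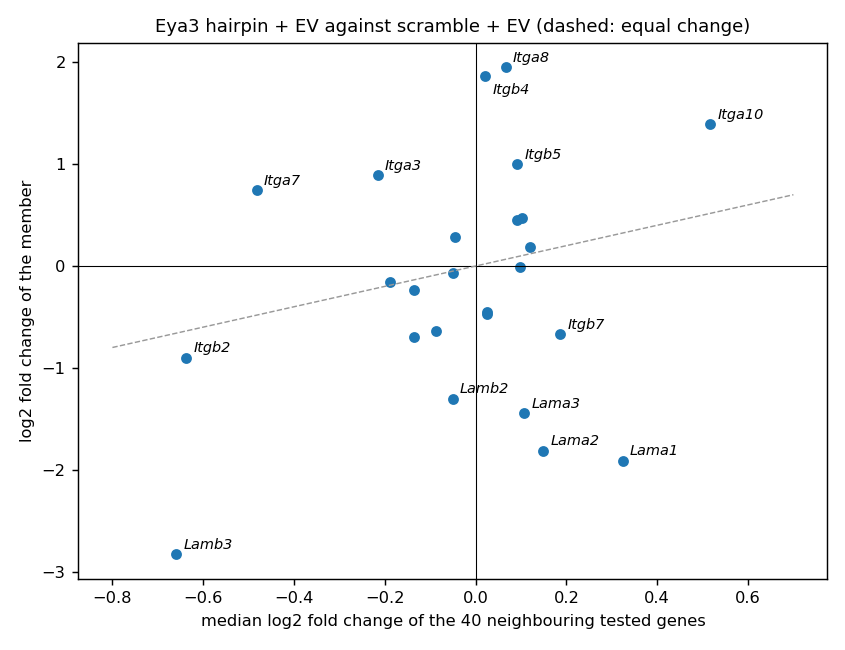
Log2 fold change of 25 tested members in shEya3 against shScramble cells (y axis) against the median log2 fold change of the 40 tested genes around each on its chromosome (x axis). Each point is a gene, the dashed line marks equal change, and Itga2 and Itgbl1 are left out; Itgb2 and Lamb3 sit at the left, with neighbour medians of -0.64 and -0.66.

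The second comparison, IKK2-SE against shEya3, asks which members differ with an active IKK2 while Eya3 is low. It shares the shEya3 libraries with the first. In all 3 members rose, Itgb2, Itga1 and Lamb3, 3 fell, among them Itga6 and Itga7, and 22 of the 28 tested members did not pass. Of all genes 10.4% were called (5.61% higher and 4.82% lower). None of the 6 called members changed 2-fold, which 1.66% of all genes did (1.37% higher and 0.292% lower). Of the 19 members whose mean log2 CPM was 1 or more, 6 were called (31.6%), beside 13.6% of all such genes, again not matched in level. Over the 22 members past the filter in all groups, which hold all 6 calls, median log2 changes were -0.06 for integrins and -0.11 for laminins, beside 0.00058 over all genes. Scaling by library totals moved the share of all calls that were higher from 53.8% to 65.9%, and the members' calls to 4 higher and 3 lower.

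Itga1 was at 28.1, 29.8 and 29.6 CPM in IKK2-SE, 22.7, 22.5 and 22.4 CPM in shEya3 and 25.4, 23.4 and 26.7 CPM in shScramble libraries. The IKK2-SE libraries lay above all others. It rose by 0.37 ± 0.06 against shEya3 (edgeR adjusted p = 0.000283) and was 0.21 ± 0.06 above shScramble (edgeR adjusted p = 0.00387), the single one of the 6 called members that was highest in IKK2-SE and lowest in shEya3 cells. Itga1 overlaps Pelo on the same strand, with means of 1895 counts for Itga1 and 1225 for Pelo. Itga8 differed by 0.99 ± 0.37 and did not pass (edgeR adjusted p = 0.109), though it did without a count filter (0.0316) and without IKK2-SE replicate 2 (0.0446).

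The third comparison, IKK2-SE against shScramble, asks what differs with both changes in place, and shares libraries with each of the others. Of the 28 tested members 12 were higher, 12 lower and 4 did not pass, beside 55.8% of all genes called (27% higher and 28.7% lower). At least 2-fold changes were called for 4 members higher and 5 lower, beside 14% of all genes (5.96% higher and 8.06% lower). Among the 22 members past the filter in all groups, 2 were at least 2-fold higher and 3 lower. Of the 19 members whose mean log2 CPM was 1 or more, 18 were called, beside 66.6% of such genes, again not matched in level. Itgb4 was higher by 1.78 ± 0.06, Itgb5 by 0.90 ± 0.05 and Itga3 by 0.90 ± 0.04 (edgeR adjusted p = 8.18e-13, 1.54e-10 and 7.83e-12). Lamb3 and Lamb2 had changes of -2.27 ± 0.10 and -1.44 ± 0.07 (edgeR adjusted p = 2.16e-11 and 4.42e-11). Lama5 was 0.26 ± 0.10 higher (edgeR adjusted p = 0.0418), a call that ended under library totals (0.055) and upper quartile scaling (0.062), and without shScramble replicate 1 (0.0593), 2 (0.0539) or 3 (0.129) or IKK2-SE replicate 1 (0.13) or 2 (0.108). Itgav changed by -0.15 ± 0.04 (edgeR adjusted p = 0.00957), which did not pass without IKK2-SE replicate 3 (-0.09, adjusted p = 0.0721).

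Genes that work with these receptors were taken as 4 lists, whose counts stand beside the 57.5% of all genes called in shEya3 against shScramble (27.7% higher and 29.9% lower) and the 10.4% in IKK2-SE against shEya3 (5.61% higher and 4.82% lower). Of 27 tested focal adhesion and integrin activation genes, 8 rose and 16 fell in shEya3 against shScramble, with a median log2 change of -0.31. Tns4, a tensin that binds integrin tails, was at 40.5, 41.01 and 40.9 CPM, 7.95, 7.22 and 9.32 CPM and 19.4, 19.98 and 19.8 CPM in shScramble, shEya3 and IKK2-SE libraries. The groups did not overlap, and Tns4 fell by 2.32 ± 0.07 and then rose by 1.27 ± 0.07 (edgeR adjusted p = 1.71e-13 and 5.83e-09). Src, the kinase at the integrin tail, fell by 1.05 ± 0.04 and Zyx, an adhesion adaptor, fell by 0.88 ± 0.03, while Rap1a, a small GTPase that activates integrins, rose by 0.88 ± 0.04 (edgeR adjusted p = 5.34e-12, 2.18e-12 and 2.14e-11). With IKK2-SE 2 of the 27 rose and 5 fell, among them vinculin (Vcl), at -0.21 ± 0.03, and focal adhesion kinase (Ptk2), at -0.21 ± 0.05 (edgeR adjusted p = 0.000699 and 0.00801). Bcar1, an adhesion scaffold, is 1 of the 5, a call that ended without shEya3 replicate 2 (0.0659) or IKK2-SE replicate 3 (0.0507).

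Of 14 tested basement membrane partners, 3 rose and 7 fell with the hairpin, and 4 rose and 2 fell with IKK2-SE, beside 57.5% and 10.4% of all genes called. Some of these IKK2-SE calls were fragile. Without IKK2-SE replicate 2 the calls of Agrn, Col4a2 and Col7a1 ended (0.0842, 0.0639 and 0.0767), that of Col4a2 also ended without shEya3 replicate 1 (0.0566), and over 19 alternatives the calls of Agrn and Col7a1 ended in 11 and 7. The collagen IV chain Col4a5 went from 45.9, 40.02 and 41.9 CPM to 194, 185 and 200.4 CPM and 194, 191 and 183 CPM, and rose by 2.18 ± 0.05 (edgeR adjusted p = 4.15e-15). Col4a6, the chain that joins it in a trimer, rose by 3.31 ± 0.25 (edgeR adjusted p = 7.31e-09). The matrix protein Sparc fell by 0.90 ± 0.04 with the hairpin and fell by 0.25 ± 0.04 with IKK2-SE (edgeR adjusted p = 4.45e-12 and 0.000258). Of 14 tested other laminin receptors and hemidesmosome genes, 4 rose and 3 fell with the hairpin, and 2 rose and 3 fell with IKK2-SE, beside the same 57.5% and 10.4%. Sdc1, the heparan sulfate carrier syndecan, is 1 of the 2 that rose, and its call ended in 9 of 19 alternatives. Dag1, the laminin receptor dystroglycan, was at 298, 302 and 283 CPM, 527, 539.7 and 513 CPM and 452, 473 and 429.8 CPM. It rose by 0.84 ± 0.04 and then fell by 0.22 ± 0.04 (edgeR adjusted p = 4.54e-11 and 0.00189). Plec, which ties the hemidesmosome to keratin, differed by 0.09 ± 0.06 with the hairpin (edgeR adjusted p = 0.244) and fell by 0.42 ± 0.06 with IKK2-SE (edgeR adjusted p = 0.000474).

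Of 14 tested other integrin ligands, 7 rose and 5 fell with the hairpin, and 4 rose and 6 fell with IKK2-SE, beside 57.5% and 10.4% of all genes. Thbs1, thrombospondin, was at 29.7, 30.5 and 29.0 CPM in shScramble, 1096, 1143 and 1128 CPM in shEya3 and 809.9, 849 and 864 CPM in IKK2-SE libraries. It rose by 5.24 ± 0.04 and then fell by 0.42 ± 0.04 (edgeR adjusted p = 4.3e-20 and 1.15e-06). Spp1, the RGD ligand osteopontin, was at 196, 194 and 197 CPM, 1708, 1558 and 1740.1 CPM and 2492, 2253 and 2423 CPM, higher at each step without overlap. It rose by 3.09 ± 0.05 and then rose by 0.52 ± 0.05 (edgeR adjusted p = 4.09e-17 and 1.08e-06). Vcam1, a ligand of alpha 4 integrins, was at 2.58, 2.53 and 2.91 CPM, 3.43, 2.71 and 3.00 CPM and 14.8, 13.6 and 13.8 CPM, and rose by 2.21 ± 0.10 with IKK2-SE (edgeR adjusted p = 2.54e-10). Itga4 was near absent throughout, with 0, 1 and 3 counts in shScramble and no count in either hairpin group. Fbln2, a matrix glycoprotein, rose by 0.46 ± 0.07 with the hairpin and fell by 0.72 ± 0.07 with IKK2-SE (edgeR adjusted p = 3.75e-05 and 5.91e-06).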

How the data were processed

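mRNA-seq libraries were made from 9 RNA samples with a commercial kit, per the labels' protocols. FastQC, MultiQC, STAR and the mm10 build are named in the submitters' processing notes, and no source used here names the counter, its annotation or its strand setting. The authors deposited raw, unnormalized counts by gene symbol. Table columns of the Eya3 hairpin read KD3 where sample titles read KD2, and were matched by group and replicate number.

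Genes passing edgeR's filterByExpr (minimum count 10, minimum total 15) numbered 16766. TMM scaling and robust quasi-likelihood fits over all 9 libraries used edgeR 4.0.16 under R 4.3.3. Adjusted p-values are Benjamini-Hochberg over every tested gene, called at 0.05, and an SE is the log2 change over the square root of its F. Replicates differed by more than counting noise (chi-square/df 3.62 to 18.77). Positions and exon lengths come from GENCODE on GRCm38/mm10. Other scalings, filters and tools (DESeq2 1.42.0, limma 3.58.1), a replicate block and each library left out served as alternatives. Members and lists were chosen with earlier results of these data known. Values in every library are given for members called at 2-fold or more, the leading member of each class and the chains of laminin-332 and laminin-511, except 1 member that enters the fits and counts and is not reported here, and partners are named from the 4 smallest adjusted p per list and comparison at a mean log2 CPM of at least 1.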

Additional observations from a re-analysis of the deposited data

How the results depend on the processing

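Over 19 alternatives to the fit, the count of called members stayed within 1.5 times the main count in shEya3 against shScramble and IKK2-SE against shScramble. Of 1576 values of single members, 1549 kept their side of the threshold, 18 lost it, 9 gained it and none reversed. In IKK2-SE against shEya3 cells the number of lower members was 3 in the main result, 5 without a count filter and 5 with the replicate number as a block. The block also called Lama5 (adjusted p = 0.00817), Lamb1 (0.0481) and Itgav (0.00442) there. Equal replicate numbers are not stated to mark a shared batch, so they were not taken as pairs. Deviations of equally numbered libraries correlated from 0.263 to 0.493 for replicates 1 and 3, and from -0.047 to 0.0928 for replicate 2. Over all genes, the block moved the calls in IKK2-SE against shEya3 from 1749 to 2678. Whether replicate numbers mark a shared batch was not tested. Leaving out each library gave 22 to 25 called members in shEya3 against shScramble (11 to 12 higher, 11 to 13 lower), 6 to 7 in IKK2-SE against shEya3 (3 to 4 higher, 3 to 3 lower) and 23 to 24 in IKK2-SE against shScramble (11 to 12 higher, 11 to 12 lower). With the longest transcript as length, the share of Itga3 was 51.1%, 61.6% and 65.4% in shScramble, shEya3 and IKK2-SE cells, that of Itgb2 52.0%, 36.3% and 45.1%, that of Itgb1 in shScramble 41.5%, that of Lama5 22.6%, 32.6% and 29.8%, and that of Lamb1 54.3%, 41.4% and 45.8%. The length used sets these differences. Members under about 0.13 CPM could not be tested at this depth.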

Other observations

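Further genes of the partner lists, several of them at low level, were chosen after their values were seen. Of all genes 57.5% were called with the hairpin and 10.4% with IKK2-SE. Whether these genes changed together with any receptor was not tested. Icam1, a surface ligand of beta 2 integrins, was at 0.201, 0.474 and 0.624 CPM in shScramble, 0.112, 0.229 and 0.159 CPM in shEya3 and 2.27, 2.32 and 1.43 CPM in IKK2-SE libraries. It fell by 1.39 ± 0.41 with the hairpin and rose by 3.57 ± 0.36 with IKK2-SE (edgeR adjusted p = 0.00837 and 4.33e-06), so its IKK2-SE libraries lay above all others. Npnt, the nephronectin ligand of the Itga8 receptor, had 3, 4 and 0 counts, 63, 46 and 53 counts and 53, 58 and 42 counts and rose by 4.36 ± 0.47 with the hairpin (edgeR adjusted p = 7.01e-07). Lims2, an adaptor of the integrin-linked kinase complex, had 212, 241 and 194 counts in shScramble, 1, 3 and 9 in shEya3 and 2, 0 and 2 in IKK2-SE libraries and fell by 5.70 ± 0.37 with the hairpin (edgeR adjusted p = 1.22e-09). The kinase itself, Ilk, fell by 0.56 ± 0.04 (edgeR adjusted p = 1.33e-09), from 145 to 98.2 CPM. Other adaptors of this complex on the same list did not fall. Lims1 averaged 81.98 CPM in shScramble against 2.98 CPM for Lims2. With the hairpin Lims1 rose by 0.13 ± 0.04 (edgeR adjusted p = 0.0117). Parvb rose by 0.18 ± 0.04 and Parva differed by 0.05 ± 0.05 (edgeR adjusted p = 0.00194 and 0.434). Tns1, a tensin, fell by 4.24 ± 0.43 (edgeR adjusted p = 4.09e-07), from 2.13 to 0.111 CPM. Npnt was past the count filter in every library only in the hairpin groups, and Lims2 and Tns1 only in shScramble. Icam1 was past it in every library only in shScramble and IKK2-SE. Npnt, Lims2, Tns1 and Icam1 thus each entered the test through the groups in which it was high.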
